A study of Homo sapiens with 4 samples.

Results

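The miRNAs hsa-miR-146a-5p, hsa-miR-146b-5p and hsa-miR-155-5p were examined in extracellular vesicles (EVs) of MDA-MB-231 cells, a human breast cancer line of the triple-negative, basal-like kind. They were taken by name, as miRNAs known to be linked to the transcription factor NF-kB, with earlier results of these data known, although the rule itself uses no measured value. They were 3 of the 1619 miRNA names listed for any library. Small RNA sequencing gave 4 libraries in 2 groups of 2, with wild-type cells throughout. The group 231 EV came from cells whose culture medium, DMEM with 10% serum and antibiotics, was exchanged for EV-free DMEM, and the group 231 -G EV from cells moved to medium lacking glucose, each for 12 h. The labels state that the medium was free of EVs for the DMEM and do not state it for the glucose-free medium, while the study's methods describe collection from EV-free medium in general. EVs were pelleted at 110000 × g for 70 min. The question was whether glucose starvation changed the 3 miRNAs in the EVs.

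Replicates were numbered 1 and 2, and each number had its own library preparation. Both libraries of replicate 1 were made from RNA pretreated enzymatically to remove modifications, and both of replicate 2 with an NEBNext small RNA kit. The media were therefore compared within a replicate number, and preparation cannot be told apart from other differences of the 2 numbers. The labels do not say that the replicates came from separate cultures, so tests across them measure the spread between these libraries, which may be technical. The libraries were small in replicate 1, where the totals were 18397 for 231 EV and 15597 for 231 -G EV, and larger in replicate 2, where they were 224966 and 170894. In these bulk preparations, fewer EVs that carry a miRNA and fewer copies per EV cannot be told apart.

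NF-kB is held inactive in the cytoplasm by inhibitor proteins and enters the nucleus when receptors of the Toll-like, interleukin-1 or tumour necrosis factor families signal. Among the genes it switches on are the host gene of miR-146a and BIC, the host gene of miR-155. The miR-146 family lowers the adaptors IRAK1 and TRAF6, which carry the signal from those receptors, and so forms a negative feedback loop, while miR-155 lowers SHIP1 and SOCS1, which restrain inflammatory signalling. Basal-like breast cancer lines are known for constitutive NF-kB activity and for miR-146a and miR-146b expression.

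The mature sequences are shown because the first bases set which messages each miRNA binds and because the miR-146 members differ only near the 3′ end. They are RefSeq sequences on build GRCh38.p14, 5′ to 3′, and capitals mark the seed, bases 2 to 8.
hsa-miR-146a-5p: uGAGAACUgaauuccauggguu
hsa-miR-146b-5p: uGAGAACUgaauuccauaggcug
hsa-miR-155-5p: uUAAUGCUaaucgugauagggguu

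The seed GAGAACU was shared by both miR-146 members, whereas miR-155-5p had the seed UAAUGCU. Among 2370 mature miRNA names in RefSeq, 3 carried GAGAACU, the third being hsa-miR-7153-5p, which was not listed in either table, and 1 carried UAAUGCU. The first 17 bases of miR-146a-5p and miR-146b-5p were identical. Over the 22 shared positions, counted from 1 at the 5′ end and with the miR-146a-5p base first, the substitutions were G18A and U21C, and miR-146b-5p had 1 more base at its 3′ end. A read shortened to the first 17 bases could come from either, so the division of reads between these paralogs depends on base 18 and those after it.

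The 3 miRNAs come from separate chromosomes. Mature miR-146a-5p lies at chr5:160485372-160485393 on the plus strand, in exon 2 of 2 of the long non-coding RNA MIR3142HG. Mature miR-155-5p lies at chr21:25573983-25574006 on the plus strand, in exon 4 of 4 of MIR155HG, the BIC transcript. Mature miR-146b-5p lies at chr10:102436520-102436542 on the plus strand, between genes, with the protein-coding gene CUEDC2 3851 bp from its hairpin and NFKB2, which encodes an NF-kB subunit, 33983 bp away. Exons and neighbours are those of GENCODE v29 on GRCh38. The RefSeq hairpins of both miR-146 genes follow with their mature arms in capitals, to show that the near-identical 5′ arms sit in hairpins with different loops and 3′ arms.
MIR146A: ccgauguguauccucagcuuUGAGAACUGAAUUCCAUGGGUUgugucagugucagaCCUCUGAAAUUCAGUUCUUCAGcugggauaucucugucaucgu
MIR146B: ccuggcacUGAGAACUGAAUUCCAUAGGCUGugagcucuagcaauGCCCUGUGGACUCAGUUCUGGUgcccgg

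In the EVs, miR-146a-5p was the highest of the 3 in every library, miR-146b-5p followed and miR-155-5p was lowest. Values are given as reads and as CPM, the reads divided by the library total and multiplied by 1000000, with the 95% Wilson interval in brackets. A read was worth 54.4 CPM in 231 EV and 64.1 CPM in 231 -G EV of replicate 1, against 4.45 and 5.85 CPM in replicate 2. Reads that carry no molecular identifier may be copies of the same molecule, and every interval, limit or read-based test covers counting error alone.

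For miR-146a-5p, 231 EV held 15 reads in replicate 1, or 815 CPM (494 to 1345), and 231 -G EV held 22, or 1411 CPM (932 to 2135). In replicate 2 the values were 280 reads in 231 EV, 1245 CPM (1107 to 1399), and 177 reads in 231 -G EV, 1036 CPM (894 to 1200). The starved library was thus the higher in replicate 1 and the lower in replicate 2, and each pair of intervals overlapped. The 4 levels ran from 231 EV replicate 1 through 231 -G EV replicate 2 and 231 EV replicate 2 to 231 -G EV replicate 1, and no neighbours in that order had separate intervals. It ranked 61st of 484, 63rd of 453, 67th of 531 and 71st of 492 detected miRNAs, taking 231 EV before 231 -G EV and replicate 1 before replicate 2.

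For miR-146b-5p, replicate 1 gave 9 reads in 231 EV, 489 CPM (257 to 930), and 18 in 231 -G EV, 1154 CPM (730 to 1824). Replicate 2 gave 159 reads in 231 EV, 707 CPM (605 to 825), and 100 in 231 -G EV, 585 CPM (481 to 712). The order of the libraries was the one seen for miR-146a-5p, and neighbouring intervals again overlapped.

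Fewest reads were found for miR-155-5p. In replicate 1 it had 0 reads in 231 EV, where a count of 0 allows up to 3 reads or 163 CPM, and 5 reads in 231 -G EV, 321 CPM (137 to 750). In replicate 2 it had 25 reads in 231 EV, 111 CPM (75.3 to 164), and 7 in 231 -G EV, 41.0 CPM (19.8 to 84.6). It was absent from the reads of the unstarved library in replicate 1 and lower in the starved one in replicate 2, so the media overlapped. Its rank was 130th, 174th and 233rd in the 3 libraries that held it.

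**Figure D1:**
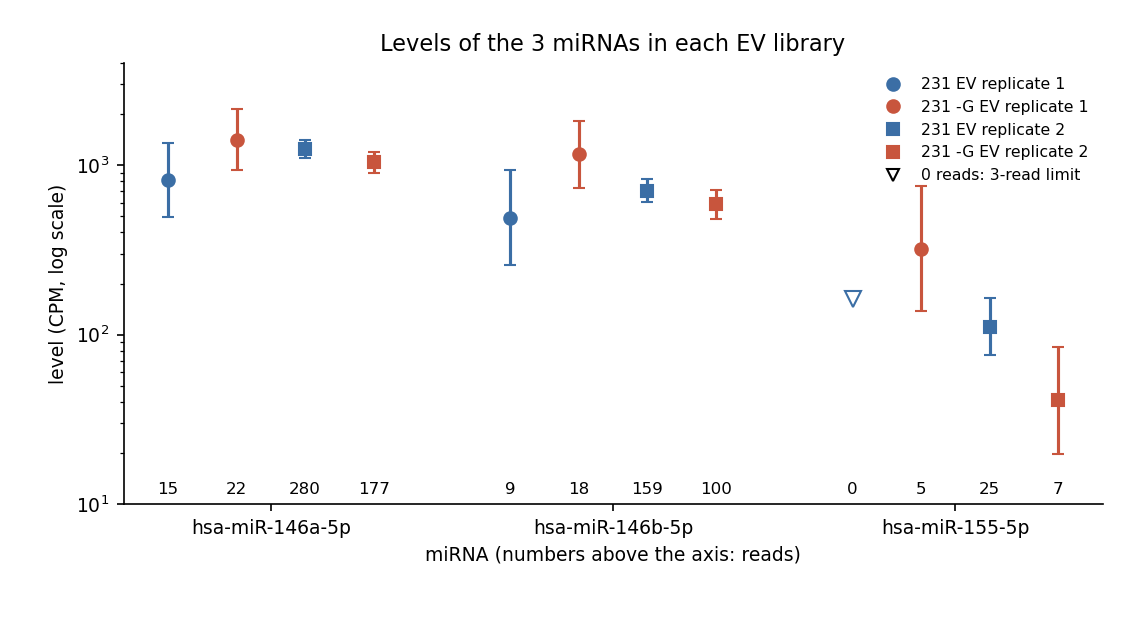
Level of each miRNA in each EV library (y axis, CPM on a log scale; points with 95% Wilson intervals, reads written above the x axis; blue 231 EV, red 231 -G EV, circles replicate 1, squares replicate 2). The red point lies above the blue one in replicate 1 and below it in replicate 2 for all 3 miRNAs, and the open triangle is the 3-read limit of 163 CPM for miR-155-5p at 0 reads.

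Averaged over the 2 replicates, miR-146a-5p was 1030 ± 304 CPM (SD, n = 2) in 231 EV and 1223 ± 265 CPM (SD, n = 2) in 231 -G EV. The mean of miR-146b-5p was 598 ± 154 CPM (SD, n = 2) against 870 ± 402 CPM (SD, n = 2), and that of miR-155-5p was 55.6 ± 78.6 CPM against 181 ± 198 CPM (SD, n = 2 each). For all 3 the difference between the means was smaller than the larger SD. Together the 3 miRNAs took 0.130% of the 231 EV reads and 0.289% of the 231 -G EV reads in replicate 1, against 0.206% and 0.166% in replicate 2.

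The opposite arms of the hairpins were at or near 0. The tables of replicate 1 listed miR-146a-3p, miR-146b-3p and miR-155-3p with 0 reads in both libraries, which allows up to 163 CPM in 231 EV and 192 CPM in 231 -G EV. In replicate 2 only miR-146b-3p was listed, where 231 EV had 2 of its reads and 231 -G EV had 3, or 8.89 and 17.6 CPM. That pair gave a ratio of 1.97 with an exact interval of 0.226 to 23.6, and its edgeR log2 fold change was 0.88 (SE 3.18), so no difference between the media was detectable at this depth.

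The main comparison fitted all 4 libraries with the quasi-likelihood test of edgeR, with the replicate number as a block and the deposited library totals. It covered 384 miRNAs listed for both replicates and above 0 in at least 2 libraries, the 3 members among them. The log2 fold change, 231 -G EV over 231 EV, was 0.22 (SE 0.98) for miR-146a-5p, 0.40 (SE 1.03) for miR-146b-5p and 0.25 (SE 1.66) for miR-155-5p, each with a Benjamini-Hochberg adjusted p of 0.999 by edgeR. The median over all 384 was 0.20, so in this fit the estimates of miR-146a-5p and miR-155-5p lay near that of a typical miRNA. The threshold was a log2 fold change above 1 in size with an adjusted p below 0.05, and 0 of the 3 members and 0 of all 384 (0%) met it. By edgeR 5 of the 384 had an unadjusted p under 0.05, against 6 by DESeq2, which also called 0. DESeq2 gave -0.055 (SE 0.92) for miR-146a-5p beside a median of -0.013 over all. For miR-155-5p it gave 1.20 (SE 2.50), further from that median. With TMM normalization the log2 fold changes were -0.22, -0.035 and -0.17 for miR-146a-5p, miR-146b-5p and miR-155-5p, and the median over all moved to -0.14, so the direction of all 3 turned with the scaling.

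Within each replicate number, reads of a miRNA were set against the rest of the library by two-sided Fisher's exact test, which compares those libraries and not the media. In replicate 1 the ratio of 231 -G EV to 231 EV was 1.73 for miR-146a-5p (exact 95% interval 0.858 to 3.59), with an exact p of 0.102 and an adjusted p of 0.549 over 670 miRNAs. For miR-146b-5p it was 2.36 (1.01 to 5.96), exact p = 0.0339 and adjusted p = 0.259. For miR-155-5p, with 0 reads in 231 EV the exact interval of the ratio had no upper bound and began at 1.08, and exact p = 0.0203 became 0.166 after adjustment. None of the 3 passed in replicate 1, where 53 of 670 miRNAs (7.91%) were called higher and 12 (1.79%) lower in 231 -G EV.

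In replicate 2 all 3 ratios were below 1. For miR-146a-5p the ratio was 0.832 (0.685 to 1.01), with exact p = 0.0587 and adjusted p = 0.233 over 618 miRNAs. For miR-146b-5p it was 0.828 (0.638 to 1.07), exact p = 0.149 and adjusted p = 0.457, and for miR-155-5p 0.369 (0.135 to 0.877), exact p = 0.0190 and adjusted p = 0.0953. Again 0 of the 3 passed, while 61 of 618 miRNAs (9.87%) were called higher and 54 (8.74%) lower. For both miR-146 members the intervals of the 2 replicates overlapped, and for miR-155-5p they did not.

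Over both replicate numbers, an exact test stratified by number gave odds ratios of 0.881 for miR-146a-5p (0.732 to 1.06, adjusted p = 0.336), 0.915 for miR-146b-5p (0.717 to 1.16, adjusted p = 0.696) and 0.622 for miR-155-5p (0.285 to 1.29, adjusted p = 0.363). None of the 3 was called, against 114 of 295 miRNAs that had reads in both pairs (38.6%). Whether the ratio differed between the replicate numbers was tested by Zelen's exact homogeneity test over the same 295 miRNAs, of which 41 (13.9%) were called. The 1 member among them was miR-155-5p, with an exact p of 0.00262 and an adjusted p of 0.0214, against adjusted p = 0.208 for miR-146a-5p and 0.0899 for miR-146b-5p. The counts behind the miR-155-5p call were 0 and 5 reads in replicate 1 and 25 and 7 in replicate 2, higher and then lower in 231 -G EV.

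The ratios of replicate 1 depended on a single miRNA outside the set. In 231 EV of replicate 1, miR-182-5p, a member of the miR-183 cluster, held 9379 reads or 51.0% of the library, against 426 reads or 2.73% in 231 -G EV, and 0.254% and 0.250% in replicate 2. Its share enters the denominator of every other miRNA. Of 154 miRNAs above 0 in all 4 libraries, 113 (73.4%) were higher in 231 -G EV of replicate 1, with a median ratio of 1.58, and 75 (48.7%) in replicate 2, with a median of 0.980. The miR-146a-5p ratio of 1.73 was thus near the median of its libraries.

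With totals that lacked miR-182-5p, the replicate 1 ratio was 0.872 (0.432 to 1.81) for miR-146a-5p and 1.19 (0.507 to 3.00) for miR-146b-5p, and the interval for miR-155-5p began at 0.545. The miR-146a-5p ratio then lay on the same side of 1 in both replicates. The replicate 2 ratios stayed at 0.832, 0.828 and 0.369. The adjusted p of the homogeneity test for miR-155-5p rose to 0.149, and with miR-451a, a red cell miRNA, left out as well to 0.147, so that call was lost without those reads. In replicate 1 the calls over all miRNAs went from 53 higher and 12 lower to 18 higher and 34 lower.

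Reads of miR-16-5p, an abundant miRNA often used as a reference, gave another denominator. Relative to it the replicate 2 ratios were 0.528 for miR-146a-5p (0.434 to 0.640, adjusted p = 3.01e-10 by Fisher's exact test), 0.525 for miR-146b-5p (0.405 to 0.680, adjusted p = 3.98e-06) and 0.234 for miR-155-5p (0.0854 to 0.556, adjusted p = 0.00165). In replicate 1 they were 2.57 for miR-146a-5p (1.12 to 5.94, Fisher's exact adjusted p = 0.146) and 3.50 for miR-146b-5p (1.33 to 9.64, adjusted p = 0.0724), and the interval for miR-155-5p began at 1.50 (adjusted p = 0.0710). The 2 replicates thus stood further apart on this scale, and the homogeneity test, added here after the data were seen, called all 3 members (exact test, adjusted p = 0.000513, 0.000295 and 0.000962). The reference itself was not constant: its reads were 70 and 40 in replicate 1, a ratio of 0.674 (0.445 to 1.01) that was not called, and 15834 and 18955 in replicate 2, a ratio of 1.58 that was called.

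**Figure D2:**
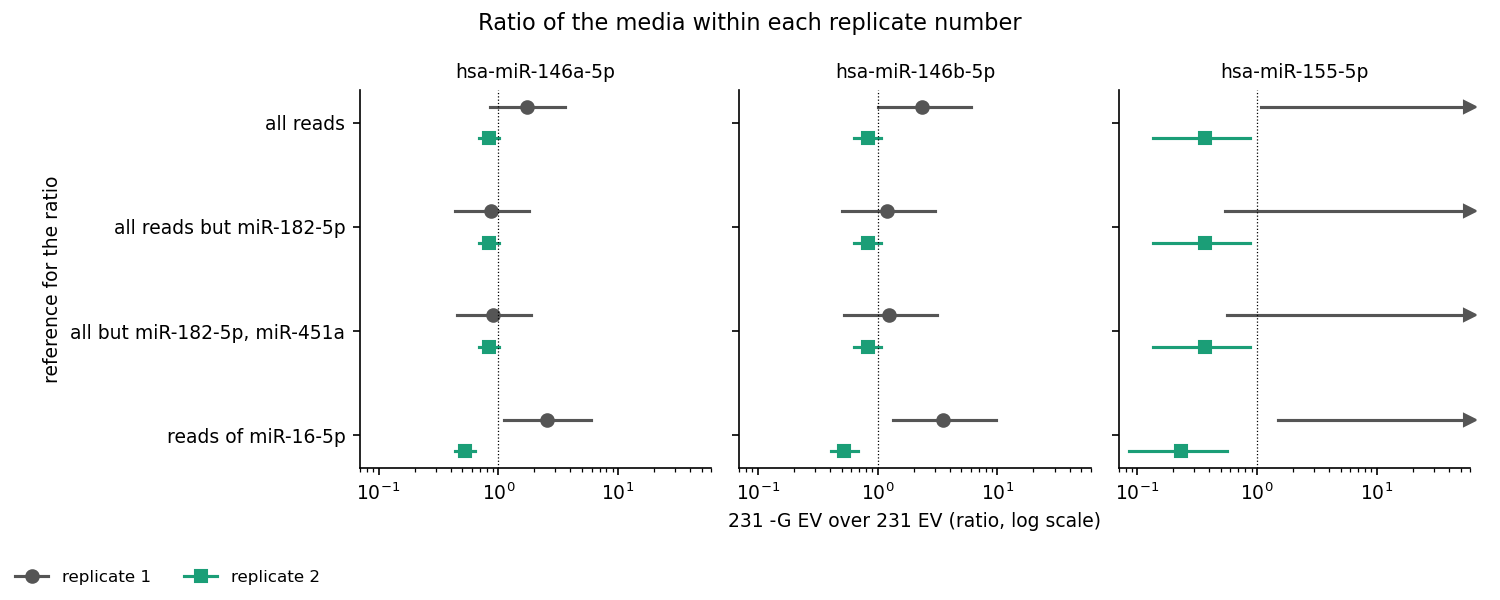
Ratio of 231 -G EV to 231 EV within replicate 1 (grey circles) and replicate 2 (green squares) for each miRNA (x axis, log scale; lines are exact 95% intervals, and arrows have no upper bound because 231 EV of replicate 1 held 0 reads), with 4 denominators on the y axis. With all reads the miR-146a-5p ratios were 1.73 and 0.832, without miR-182-5p 0.872 and 0.832, and against miR-16-5p 2.57 and 0.528.

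A proportion within the miR-146 family does not depend on the library total. Of the reads of both miR-146 members, miR-146b-5p made up 9 of 24 in 231 EV of replicate 1, 37.5% (exact Clopper-Pearson 95% interval 18.8 to 59.4), and 18 of 40 in 231 -G EV, 45% (29.3 to 61.5). In replicate 2 it made up 159 of 439 in 231 EV, 36.2% (31.7 to 40.9), and 100 of 277 in 231 -G EV, 36.1% (30.4 to 42.1). The 4 shares lay within 36.1% to 45%, and every interval overlapped every other. Fisher's exact test gave adjusted p = 0.835 between the media in replicate 1 and 1 in replicate 2, and 1 and 0.593 between the replicate numbers within 231 EV and within 231 -G EV, over 8 such tests.

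**Figure D3:**
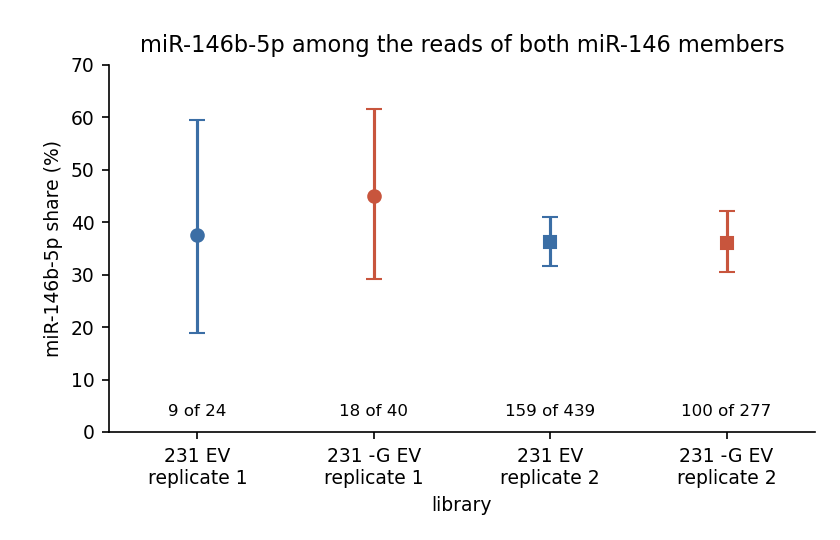
Share of miR-146b-5p among the reads of both miR-146 members in each library (y axis, percent from 0; points with exact 95% intervals, reads written below them). The points lie at 37.5%, 45%, 36.2% and 36.1%, with overlapping intervals that are narrower in replicate 2.

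The share of miR-155-5p was likewise taken among the reads of all 3. It was 0 of 24 in 231 EV of replicate 1, which allows up to 12.5%, and 5 of 45 in 231 -G EV, 11.1% (3.71 to 24.1). In replicate 2 it was 25 of 464 in 231 EV, 5.39% (3.52 to 7.85), and 7 of 284 in 231 -G EV, 2.46% (0.997 to 5.01). No pair passed over the same 8 Fisher's exact tests, with adjusted p = 0.413 and 0.252 between the media in replicates 1 and 2. Between the replicate numbers adjusted p was 0.835 within 231 EV and 0.116 within 231 -G EV.

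On the deposited totals, the CPM of the miR-146 members varied less over the libraries than that of most miRNAs. In replicate 1 each of their levels rested on 9 to 22 reads, and this spread was not taken with other totals. The highest over the lowest CPM was 1.73 for miR-146a-5p, the 6th smallest of the 154 miRNAs above 0 in every library, and 2.36 for miR-146b-5p, the 23rd smallest, against a median of 7.89. The same quotient was 1025 for miR-451a, 204 for miR-182-5p, 43.2 for miR-16-5p and 15.6 for miR-21-5p. From replicate 1 to replicate 2, miR-146a-5p changed by a ratio of 1.53 in 231 EV (exact interval 0.910 to 2.76) and 0.734 in 231 -G EV (0.470 to 1.20). For miR-146b-5p the ratios were 1.44 (0.742 to 3.22) and 0.507 (0.305 to 0.890), and for miR-155-5p in 231 -G EV 0.128 (0.0349 to 0.511). In 231 EV, where miR-155-5p had 0 reads in replicate 1, the interval began at 0.514 with no upper bound. On the deposited totals, miR-146b-5p and miR-155-5p of 231 -G EV were thus lower in replicate 2 beyond counting error. The intervals of miR-146a-5p held 1 in both media on those totals. In replicate 1, miR-182-5p and miR-451a made up 51.0% and 19.4% of 231 EV and 2.73% and 40.8% of 231 -G EV. These ratios between the replicate numbers were not taken with other totals, so they hold for the deposited totals alone.

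Likeness of pattern was measured as the Euclidean distance between log2(CPM + 50) values over the 4 libraries, each centred on its own mean, among the 154 miRNAs above 0 in all. Nearest to miR-146a-5p were miR-221-5p (distance 0.145), let-7i-5p (0.306) and miR-30e-3p (0.367), where the median distance was 1.73. Nearest to miR-146b-5p were miR-7-5p (0.239), miR-194-5p (0.345) and let-7i-5p (0.360), with a median of 1.90. Each miR-146 member was the 6th nearest to the other, at 0.410. Nearest to miR-155-5p were miR-744-5p (0.861), miR-423-3p (0.999) and miR-145-5p (1.04), with a median of 2.51, so no candidate was as close to it as those of the miR-146 members. These distances describe 4 libraries in 2 preparations, and several rest on few reads, such as the 2, 3, 44 and 24 reads of miR-221-5p in the same order of libraries.

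Other miRNAs known to be induced by NF-kB or endotoxin were compared as a list of 13, of which 12 were listed for both replicates. By edgeR 0 of 12 were called, and their median log2 fold change was 0.10 beside 0.20 over all miRNAs. Fisher's exact test called 1 of 10 higher and 0 lower in replicate 1, where 7.91% and 1.79% of all miRNAs were called. In replicate 2 it called 3 of 13 higher and 4 lower, beside 9.87% and 8.74% of all. The 8 above 0 in all libraries had a median ratio of 1.62 in replicate 1 and 0.752 in replicate 2, against 1.58 and 0.980 over all 154. The 1 miRNA called in both replicates was called in opposite directions on the deposited totals, and lower in both when the totals lacked miR-182-5p.

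That miRNA was miR-21-5p, a highly expressed miRNA of many tumours. In replicate 1 its reads numbered 356 without starvation and 430 with it, a ratio of 1.42 (1.24 to 1.64), and 68029 and 39805 in replicate 2, a ratio of 0.770 (0.761 to 0.780). With totals that lacked miR-182-5p, an alternative added after the data were seen, the replicate 1 ratio was 0.718 (0.622 to 0.829, adjusted p = 9.67e-05 by Fisher's exact test). It was 30.2% and 23.3% of the reads in replicate 2. The miRNA miR-221-3p, which lowers the cell cycle inhibitor p27, had 11 and 6 reads in replicate 1, a ratio of 0.643 (0.195 to 1.90) that was not called, and rose by 1.35-fold (1.30 to 1.41) in replicate 2. The cluster-mates miR-125a-5p and miR-99b-5p had ratios of 2.95 and 1.82 that were not called in replicate 1 and fell to 0.679 and 0.649 of their 231 EV share in replicate 2. Like the members, miR-21-5p, miR-125a-5p and miR-99b-5p had ratios above 1 in replicate 1 and below 1 in replicate 2 on the deposited totals. When the totals lacked miR-182-5p, the replicate 1 ratio was 0.919 for miR-99b-5p and 1.49 for miR-125a-5p, neither called. It was thus below 1 for miR-99b-5p, as for miR-21-5p and the member miR-146a-5p.

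The second list held 12 miRNAs linked to inhibition of NF-kB signalling. By edgeR 0 of 12 were called, with a median log2 fold change of 0.17. Fisher's exact test called 2 of 12 higher and 0 lower in replicate 1, beside 7.91% and 1.79% of all miRNAs, and 2 higher and 4 lower in replicate 2, beside 9.87% and 8.74%. The median ratios of the 11 above 0 in every library were 1.42 and 0.817. The 2 called in both replicates, again in opposite directions, were miR-10a-5p and miR-126-3p. The first, which lowers kinases upstream of NF-kB, had 99 and 210 reads in replicate 1, a ratio of 2.50 (1.96 to 3.21), and 1022 and 634 in replicate 2, a ratio of 0.817 (0.738 to 0.903). The second, an endothelial miRNA, had ratios of 3.06 (1.84 to 5.25) and 0.490 (0.445 to 0.539). When the totals lacked miR-182-5p neither was called in replicate 1, at 1.26 (0.988 to 1.62) and 1.54 (0.927 to 2.65), while miR-16-5p was called lower there, at 0.340 (0.224 to 0.508). For miR-23b-3p the ratio was 1.03 in replicate 1, not called, and rose to 1.28 (1.09 to 1.51) in replicate 2.

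Leucocytes are known to express miR-146a and miR-155 strongly, so miRNAs that mark blood cells were summed beside them. The 5 leucocyte miRNAs, miR-142-3p, miR-142-5p, miR-223-3p, miR-150-5p and miR-342-3p, summed to 8 reads in 231 EV of replicate 1, 435 CPM, and to 29 reads in 231 -G EV, 1859 CPM. In replicate 2 the sums were 2092 and 796 reads, 9299 and 4658 CPM. Their summed ratio was 4.28 (1.91 to 10.8) in replicate 1, or 2.15 (0.961 to 5.45) with totals that lacked miR-182-5p, and 0.501 (0.461 to 0.544) in replicate 2. At 0 were 2 of the 5, miR-150-5p and miR-342-3p, in 231 EV of replicate 1, and 0 in the other libraries. Fisher's exact test called 1 of 5 higher in replicate 1, miR-142-5p, beside 7.91% of all miRNAs, and all 5 lower in replicate 2, beside 8.74%. With totals that lacked miR-182-5p it called 0 of 5 in replicate 1. In replicate 1 most of the gain came from miR-142-5p, with 2 and 16 reads, and miR-150-5p, with 0 and 6, while miR-142-3p had 3 and 3 and miR-223-3p had 3 and 2. The leucocyte sum thus had a ratio above 1 in replicate 1 and below 1 in replicate 2, as each member did on the deposited totals, and their part in the members' ratios was not tested.

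The 4 red cell miRNAs, miR-451a, miR-486-5p, miR-144-3p and miR-144-5p, summed to 200359 and 427775 CPM in replicate 1 and 2534 and 790 CPM in replicate 2. Their ratio was 2.14 (2.05 to 2.22) and 0.312 (0.257 to 0.377), and 1.08 in replicate 1 when miR-182-5p was dropped from the totals. Of these miR-144-5p was at 0 in both libraries of replicate 1, and 2 of the other 3 were called higher there, beside 7.91% of all miRNAs, while all 4 were called lower in replicate 2, beside 8.74%. The 7 epithelial miRNAs were the miR-200 family with miR-205-5p and miR-375-3p. They summed to 924 and 6091 CPM in replicate 1 and 871 and 217 CPM in replicate 2, ratios of 6.59 and 0.249. In replicate 1, 3 of 7 were called higher (7.91% of all), and in replicate 2, 1 was called lower, miR-205-5p (8.74% of all). Without miR-205-5p, which had 109 and 3 reads, the replicate 2 ratio of the other 6 was 0.514. The replicate 1 ratio of all 7 was 3.32 (1.97 to 5.94) when the totals lacked miR-182-5p, with 2 of the 7 called higher. With 2 at 0 in 231 EV of replicate 1 and 0 elsewhere, they were low beside the 5 miRNAs of mesenchymal or basal-like breast lines in replicate 2, which summed to 106234 and 150912 CPM. In replicate 1 that basal-like sum was 2283 and 4103 CPM, below the red cell sum in both libraries and below the epithelial sum in 231 -G EV. Its ratio was 1.80 in replicate 1, or 0.906 (0.604 to 1.37) when miR-182-5p was dropped from the totals, and 1.42 in replicate 2. Fisher's exact test called 1 of 5 higher in replicate 1 (7.91% of all), or 0 with totals that lacked miR-182-5p. In replicate 2 it called 4 higher and 1 lower (9.87% and 8.74% of all). The lower one was miR-100-5p, at 0.695 (0.670 to 0.721), and the largest gain in reads was that of miR-29a-3p, from 10470 to 15913. The basal-like list thus had the highest sum of the cell type lists in replicate 2 and not in replicate 1. In replicate 2, miR-29a-3p alone gave 46540 and 93116 CPM of that sum. The list shares miR-221-3p and miR-222-3p with the list of miRNAs induced by NF-kB or endotoxin. The part of the cell type lists in the members' levels was not tested.

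Set against the leucocyte reads, a comparison added after the data were seen, the miR-146 members stood differently. There were 187.5 reads of miR-146a-5p per 100 leucocyte reads in 231 EV and 75.9 in 231 -G EV of replicate 1, a ratio of 0.405 (0.126 to 1.25, Fisher's exact adjusted p = 0.430). In replicate 2 there were 13.4 and 22.2, a ratio of 1.66 (1.34 to 2.05, adjusted p = 1.16e-05). For miR-146b-5p the ratios were 0.552 (0.155 to 1.96, Fisher's exact adjusted p = 0.651) and 1.65 (1.26 to 2.17, adjusted p = 0.00117), and for miR-155-5p in replicate 2 the ratio was 0.736 (0.268 to 1.76, adjusted p = 0.844). In replicate 2, then, the ratio of each miR-146 member was above that of the leucocyte sum, while for miR-155-5p no difference from them was detectable at this depth.

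**Figure D4:**
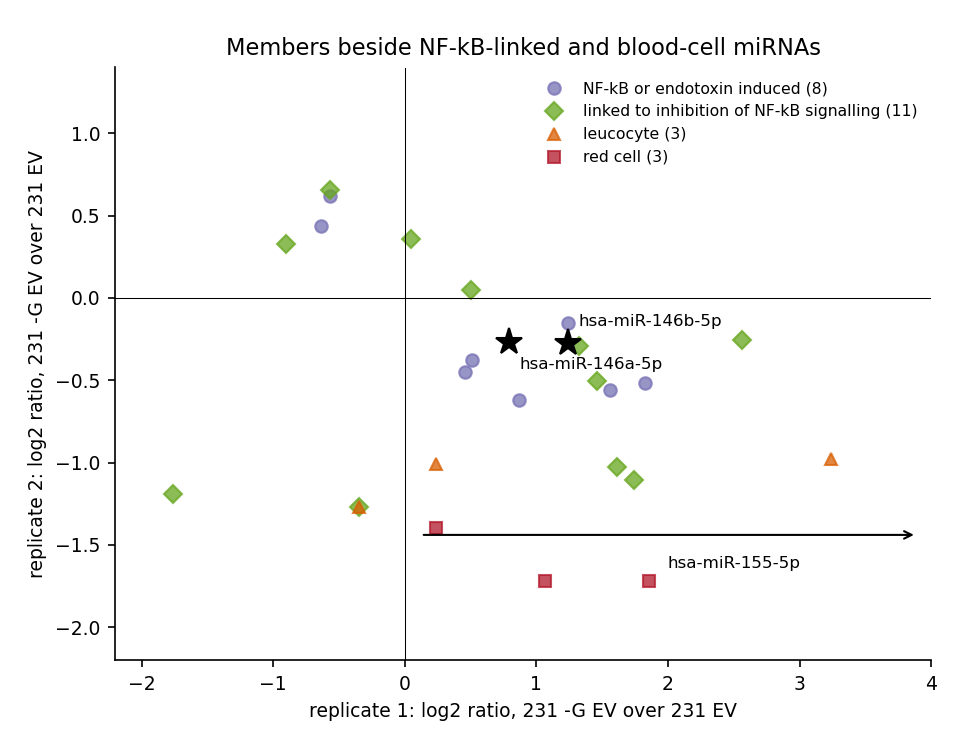
Log2 ratio of 231 -G EV to 231 EV in replicate 1 (x axis) and in replicate 2 (y axis) for miR-146a-5p and miR-146b-5p (stars), for miR-155-5p (arrow from the start of its exact interval in replicate 1, which has no upper bound) and for miRNAs of 4 lists above 0 in every library. The members lie at the lower right, above 0 in replicate 1 and below 0 in replicate 2, as do miRNAs of each list, on the deposited totals (the miR-146a-5p ratio in replicate 1 was 0.872 when they lacked miR-182-5p).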

How the data were processed

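The members and the lists were chosen with earlier results of these data known. The authors deposited whole-number read counts per mature miRNA beside values scaled to the library total, headed CPM in the table of replicate 1 and TPM in that of replicate 2. Both deposited columns, CPM and TPM, were checked to equal the count divided by its total times 1000000. The 2 tables listed 1315 and 843 miRNAs, 539 of them in both. Per the submitters' processing notes, FastQC, cutadapt, Bowtie, Bowtie2, StringTie and edgeR were used with hg38, and the study's methods describe removal of Rfam RNAs and matching to miRBase, not given separately for the 2 preparations. For a miRNA found in 1 table, the other replicate was taken as unknown.

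Counts were fitted with edgeR 4.0.16 (R 4.3.3). DESeq2 1.42.0 and limma 3.58.1 on log2(CPM + 1) and log2(CPM + 50) were alternatives, with other totals, filters and left-out replicates. Fisher's exact test was that of SciPy 1.17.1, and the stratified and homogeneity tests were written out with functions of SciPy. All tests were two-sided, with Benjamini-Hochberg adjustment over all miRNAs tested, except for the within-family shares, where it ran over 8 tests. A ratio to a reference carries the conditional interval of the odds ratio. The edgeR, Fisher's, stratified and homogeneity tests were tested on simulated data. Named beside the members were their opposite arms, miRNAs of the same seed, the 4 highest of each NF-kB list with any called in both replicates, and the 3 nearest in pattern to each member. The pairing by replicate number came from the labels, which give each number its preparation. Libraries of the same number deviated together from the group means (correlation 0.59 across 384 miRNAs), and the common dispersion was 0.301 in the fit with the block against 1.60 otherwise.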

Additional observations from a re-analysis of the deposited data

Results flagged for a closer look

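The ratio of 231 -G EV to 231 EV for miR-155-5p differed between the replicate numbers, with an adjusted p of 0.0214 by Zelen's exact homogeneity test over 295 miRNAs. In replicate 1 the reads went from 0 in 231 EV to 5 in 231 -G EV, and in replicate 2 from 25 to 7. Without miR-182-5p in the totals the adjusted p was 0.149.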

How the results depend on the processing

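Of 126 recomputed values, 23 turned direction, 12 counts moved by over 1.5 times, 2 lost and 8 gained a call in the same direction, and 81 did none of these, although their size could change. The edgeR log2 fold changes of miR-146a-5p, miR-146b-5p and miR-155-5p were -0.22, -0.035 and -0.17 with TMM, -0.24, -0.051 and -0.19 with totals lacking miR-182-5p, and -0.21, -0.032 and -0.18 lacking miR-451a as well, and miR-146a-5p was -0.055 with DESeq2. That of miR-155-5p, 0.25 in the reported fit, was 1.20 with DESeq2 and 3.46 and 1.03 with limma at CPM + 1 and CPM + 50, none called. Left with 1 replicate, a value with no test, they ran from -0.27 to 0.79, -0.27 to 1.24 and -1.44 to 0.98, negative without replicate 1. The 0.98 of miR-155-5p is no estimate, since the limit of 3 reads stood in for the 0 reads of 231 EV in replicate 1. With the block a library without its partner adds nothing, so libraries were left out in pairs. In the fit with no replicate block they were 0.24, 0.52 and 1.35 (edgeR adjusted p = 1.00 each), and the block changed no call. The count of miRNAs called by edgeR went from 0 to 1 lacking miR-182-5p and lacking both (miR-449c-5p), 1 with no filter (miR-206) and 2 with at least 10 reads (both), named after their values were seen. Limma called 0, with 13 (CPM + 1) and 4 (CPM + 50) at an unadjusted p under 0.05.

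In replicate 1 the miR-146a-5p ratio fell under 1 lacking miR-182-5p (0.872), lacking both (0.906), with TMM (0.963) and against the leucocyte list (0.405), where that of miR-146b-5p was 0.552. In replicate 2 that list gave 1.66 and 1.65, which turned direction and were called (Fisher's exact adjusted p = 1.16e-05 and 0.00117). The start of the miR-155-5p interval in replicate 1 fell from 1.08 to 0.545 lacking miR-182-5p, 0.566 lacking both and 0.206 against the list. Against miR-16-5p the replicate 2 ratios of the 3 passed the test at 0.528, 0.525 and 0.234, as did the stratified odds ratios at 0.579, 0.609 and 0.431, although the homogeneity test then called a difference between the replicates for all 3 (adjusted p = 0.000513, 0.000295 and 0.000962). With 1 replicate number the stratified values ran from 0.832 to 1.73, 0.828 to 2.36 and 0.369 to 1.08, the last being the start of an interval. The homogeneity call of miR-155-5p was lost lacking miR-182-5p (adjusted p = 0.149) and lacking both (0.147). Fisher calls in replicate 1 went from 53 higher and 12 lower to 18 and 34 lacking miR-182-5p and 17 and 34 lacking both, and the lower count to 5 over the miRNAs of both tables and to 5 against miR-16-5p. In replicate 2 they went from 61 higher and 54 lower to 11 and 131 against miR-16-5p. Where the cause is not the changed denominator or the libraries left out, the cause was not tested. In replicate 1, 0 to 22 reads stood behind each member.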
